A study of Mus musculus with 4 samples.

Results

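The genes described here are 10 members of the BCL2 family, whose proteins decide at the mitochondrial outer membrane whether a cell lives or dies. They were taken by name from the table of counts per gene, which holds 41342 named genes, and all 10 were found there. They are Bcl2, Bcl2l1, Mcl1, Bcl2a1b and Bcl2a1d, which protect cells, Bax and Bak1, the effectors of cell death, and Bcl2l11, Bbc3 and Pmaip1, which belong to the BH3-only group that triggers it. All 10 also passed the filter of a mean of at least 50 counts, which left 11286 genes for testing.

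RNA was measured in splenic B cells of mice of the 129 strain that carried 1 of 2 deletions in the 3' regulatory region of the immunoglobulin heavy-chain locus. ΔleftPAL mice lack the hs3a and hs1,2 enhancers together with the sequence between them. ΔIRIS mice keep all the enhancers, with hs3a put back in inverted orientation, but lack the intervening inverted repeats of the left arm. Both lines came from E14 embryonic stem cells, and in both the floxed neomycin resistance cassette had been removed by cre. Each genotype gave 1 library of resting cells, which were CD43-depleted splenocytes that had not been cultured, and 1 of LPS-activated cells, which had spent 48 h in culture with LPS at 5 μg per ml and had then been separated on a gradient. The libraries of wt mice were not analysed here, so every comparison is between the mutants or between the states. None of the libraries analysed came from cells cultured without LPS, so LPS, culture and the gradient cannot be told apart. What is called the LPS response below is the difference between these states as a whole. Each library pooled several animals. The labels describe a pool of B cells from 4 animals, the methods describe 2 pooled RNAs per genotype, and a figure legend names 3 males of 8 to 12 weeks of age per genotype. There is 1 library per genotype and state and no repeat of any group.

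The members work by binding each other. BCL2, BCL-XL (the product of Bcl2l1), MCL1 and A1 (the product of the Bcl2a1 genes) hold BAX and BAK in check, BH3-only proteins such as BIM (Bcl2l11), PUMA (Bbc3) and NOXA (Pmaip1) bind and block the protective members, and free BAX and BAK open the membrane and release cytochrome c. NOXA binds mainly MCL1 and A1, whereas BIM and PUMA bind all protective members. Resting B cells depend on survival signals from the B cell receptor and from BAFF, and LPS, which acts on B cells through Toll-like receptor 4, turns them into dividing blasts and plasmablasts.

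The libraries held between 23621743 and 29778717 counts, and 3 counts, the smallest level taken as detectable, corresponded to 0.101 to 0.127 CPM (counts scaled to a common library size with TMM factors). The 6 B cell markers were all detected in every library, with a summed level of 3434 to 4040 CPM at rest and 2219 to 2323 CPM after LPS. The summed markers of other cells differed between the states in both genotypes. The 4 erythroid markers summed to 19062 and 12463 CPM in resting ΔleftPAL and ΔIRIS cells and to 24.3 and 51.0 CPM after LPS, none being at 0. The 5 macrophage and monocyte markers summed to 375 and 503 CPM at rest and to 13.7 and 18.9 CPM after LPS, with Cd14, Csf1r, Emr1 and Lyz2 falling by edgeR's test. Itgam did not pass it (adjusted p = 0.410), at a log2 ratio of -1.46 (-1.76 to -1.17) in ΔleftPAL and 0.40 (0.18 to 0.61) in ΔIRIS cells, where the brackets hold the 95% counting interval. The 5 T cell markers summed to 20.2 and 26.4 CPM at rest and to 0.107 and 0.0322 CPM after LPS, where Cd3d, Cd3e and Cd3g were at 0 in both libraries. The 5 neutrophil markers summed to 9.52 and 1.99 CPM at rest and were all at 0 after LPS. The 4 plasmablast markers summed to 280 and 256 CPM at rest and to 949 and 566 CPM after LPS, with Igj, Prdm1 and Xbp1 rising by edgeR's test. Sdc1 did not pass it (adjusted p = 0.741), at a log2 ratio of 0.38 (0.17 to 0.59) in ΔleftPAL and -0.59 (-0.78 to -0.40) in ΔIRIS cells. The part of these other cells in the changes given below was not tested, and fewer cells of a type cannot be told apart from less RNA per cell.

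Levels of different genes were compared per transcript length, as kallisto TPM summed per gene. Mcl1 stood first in every library, at 207 and 215 TPM in resting ΔleftPAL and ΔIRIS cells and at 167 and 168 TPM after LPS. Bbc3 stood last at rest, at 3.74 and 6.89 TPM, and Pmaip1 stood last after LPS, at 11.3 and 8.54 TPM. Bax stood second in both LPS libraries, at 131 and 111 TPM, followed by Bcl2a1d at 128 and 104 TPM. With 1 library per group these orders have no error, and neighbours such as Bax and Bcl2a1b in resting ΔleftPAL cells (57.2 and 56.8 TPM) are not distinguished.

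**Figure D1:**
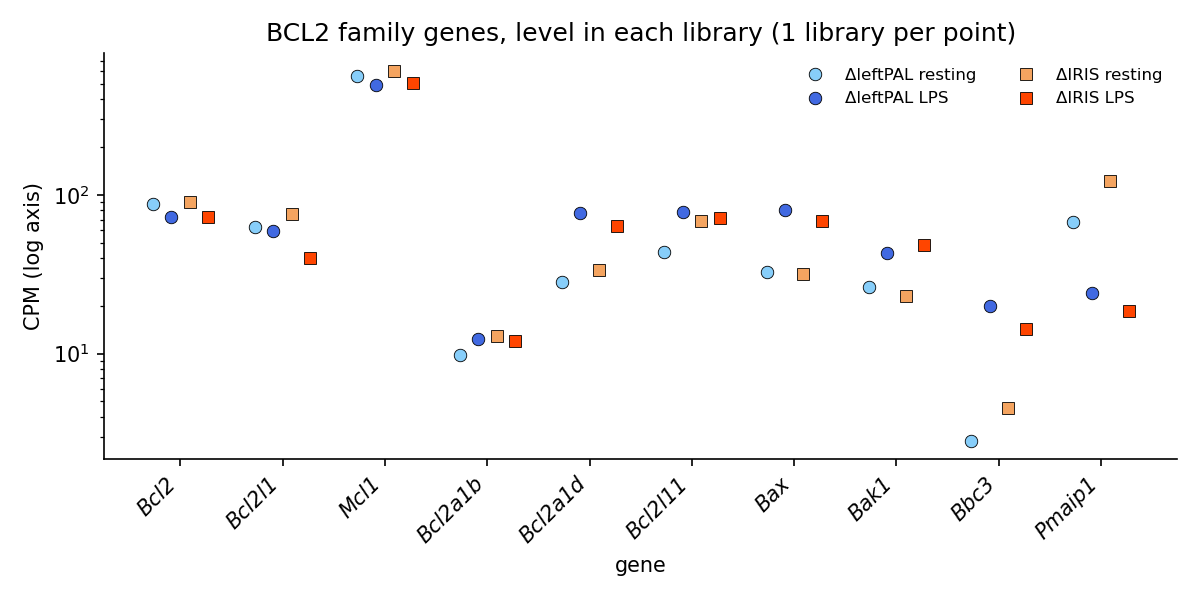
Level of each member in each library, in CPM on a log axis. Circles stand for ΔleftPAL and squares for ΔIRIS, light for resting and dark for LPS-activated cells, with 1 library per point. Bax, Bak1, Bbc3 and Bcl2a1d were higher in both LPS libraries than in both resting ones and Pmaip1 was lower in both, while Mcl1 stayed between 491 and 599 CPM.

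The first comparison asked how the members differed between resting and LPS-activated cells. It was fitted by edgeR's quasi-likelihood test across all 11286 genes with genotype and state as terms, so the 2 genotypes served as the repeats of the LPS response and 1 residual degree of freedom was left. Beside this fit, the reads of each LPS library were set against those of the resting library of the same genotype, with a 95% Clopper-Pearson interval that covers counting error only and with no p. Bbc3, Bax, Bcl2a1d and Bak1 rose and Pmaip1 fell. The share of all genes called higher was 31.3% and the share called lower was 31.4%, so 4 higher and 1 lower of 10 members is near the background of a response this wide. Both effectors rose, the BH3-only members went in different directions, and among the 5 protective members only Bcl2a1d passed the test.

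Bax, whose product forms the pores in the mitochondrial membrane, is encoded on chromosome 7 (45461695 to 45466898, minus strand, GRCm38) and was counted over 6 exon blocks of 869 bases. It had 764 counts at rest and 2235 after LPS in ΔleftPAL cells, or 32.8 and 79.9 CPM, and 882 and 2118 in ΔIRIS cells, or 31.9 and 68.1 CPM. Both LPS libraries lay above both resting libraries. The log2 ratio of LPS over resting was 1.29 (1.17 to 1.41) in ΔleftPAL and 1.10 (0.98 to 1.21) in ΔIRIS cells, and over both genotypes edgeR gave a log2 fold change of 1.19 ± 0.12 (SE, adjusted p = 0.00225). Bak1, the other effector, lies on chromosome 17 (27019810 to 27029009, minus strand). It was counted at 612 and 1199 in ΔleftPAL and at 640 and 1508 in ΔIRIS cells, or 26.3 and 42.9 CPM and 23.1 and 48.5 CPM. Its LPS libraries were also above both resting ones, with log2 ratios of 0.71 (0.57 to 0.85) and 1.07 (0.93 to 1.20), and the fitted change was 0.89 ± 0.15 (SE, edgeR adjusted p = 0.00752). Exons of Bak1 share 357 bases with exons of Ggnbp1 on the opposite strand, a gene with 32 to 74 counts. The summed level of the effectors went from 79.3 to 161 TPM in ΔleftPAL and from 74.1 to 140 TPM in ΔIRIS cells. Bok, the remaining effector gene, had 0 to 3 counts and was not tested.

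Bbc3 encodes PUMA, a BH3-only protein that is a classic target of p53, and lies on chromosome 7 (16309616 to 16318205, plus strand). It had the fewest counts of the members at rest, 66 in ΔleftPAL and 125 in ΔIRIS cells, against 556 and 447 after LPS. These correspond to 2.83 and 4.52 CPM at rest and 19.9 and 14.4 CPM after LPS. The log2 ratio was 2.81 (2.44 to 3.20) in ΔleftPAL and 1.67 (1.38 to 1.97) in ΔIRIS cells. With a prior of 5 CPM added to each level these ratios were 1.67 and 1.03, and with kallisto TPM they were 2.30 and 1.05. The fitted log2 change was 2.22 ± 0.33 (SE, edgeR adjusted p = 0.00573), which was the highest of the members. Pmaip1 encodes NOXA, another BH3-only protein, and changed the other way. Its counts were 1565 at rest and 678 after LPS in ΔleftPAL cells, or 67.1 and 24.2 CPM, and 3391 and 577 in ΔIRIS cells, or 123 and 18.6 CPM. Its resting libraries were both above its LPS libraries, but they also differed from each other, as described further on. The log2 ratio was -1.47 (-1.60 to -1.34) in ΔleftPAL and -2.72 (-2.85 to -2.60) in ΔIRIS cells, and the fitted log2 change was -2.10 ± 0.33 (SE, edgeR adjusted p = 0.00678).

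The upstream sequences of Bbc3 and Bax are shown because these were the members at least 2-fold higher in both genotypes. They are the RefSeq promoter windows of GRCm38.p6 (the C57BL/6J reference, not the 129 strain of these mice), printed from 250 bases before the start up to the start. The capitals mark matches, on either strand, of the κB consensus bound by NF-κB in Bbc3 (chr7:16309333-16309582, plus strand) and of the p53 half-site in Bax (chr7:45466899-45467148, minus strand).
Bbc3: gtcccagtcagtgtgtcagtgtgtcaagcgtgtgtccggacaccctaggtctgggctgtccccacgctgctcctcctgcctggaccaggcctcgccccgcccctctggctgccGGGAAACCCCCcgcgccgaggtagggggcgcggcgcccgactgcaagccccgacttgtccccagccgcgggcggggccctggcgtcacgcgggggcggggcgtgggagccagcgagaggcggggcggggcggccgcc
Bax: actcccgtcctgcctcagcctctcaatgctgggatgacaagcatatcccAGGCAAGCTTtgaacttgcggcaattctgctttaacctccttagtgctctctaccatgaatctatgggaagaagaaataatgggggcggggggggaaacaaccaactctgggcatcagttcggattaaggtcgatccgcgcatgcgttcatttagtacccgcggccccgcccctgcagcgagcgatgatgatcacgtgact
The Bbc3 run in capitals holds 2 overlapping matches, and the p53 half-site had 0 matches in each of the 3 Bbc3 windows. Of these 3, only the window that held the κB consensus is printed, and it was picked for that match. Over 300 bases, from 250 before to 50 after the start, the κB consensus was present in 4.51% of the 32851 RefSeq windows and the p53 half-site in 8.36%. Of the 14 windows of the 9 members that were matched, 2 held the κB consensus, 1 of Bbc3 and 1 of Bcl2l1, and 1 of Bax held the p53 half-site. These matches describe letters in a window and say nothing of binding.

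Bcl2l11 encodes BIM, the BH3-only protein that removes B cells when survival signals fade, and lies on chromosome 2 (128126038 to 128162547, plus strand). It had 1017 counts at rest and 2177 after LPS in ΔleftPAL cells, or 43.6 and 77.9 CPM, and 1887 and 2239 in ΔIRIS cells, or 68.2 and 72.0 CPM. In CPM the resting libraries were the ones that differed, and the LPS libraries were close to each other. In kallisto TPM the LPS libraries differed too, at 48.6 in ΔleftPAL and 37.6 in ΔIRIS cells. The log2 ratio was 0.84 (0.73 to 0.94) in ΔleftPAL and 0.08 (-0.01 to 0.17) in ΔIRIS cells, and the fitted change of 0.45 ± 0.21 (SE, edgeR adjusted p = 0.128) did not pass the test. The ΔIRIS ratio changed sign with kallisto TPM, to -0.32, from 47.0 to 37.6 TPM. With no minimum count the fitted change passed the test, at a log2 change of 0.59 (edgeR adjusted p = 0.0168).

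**Figure D2:**
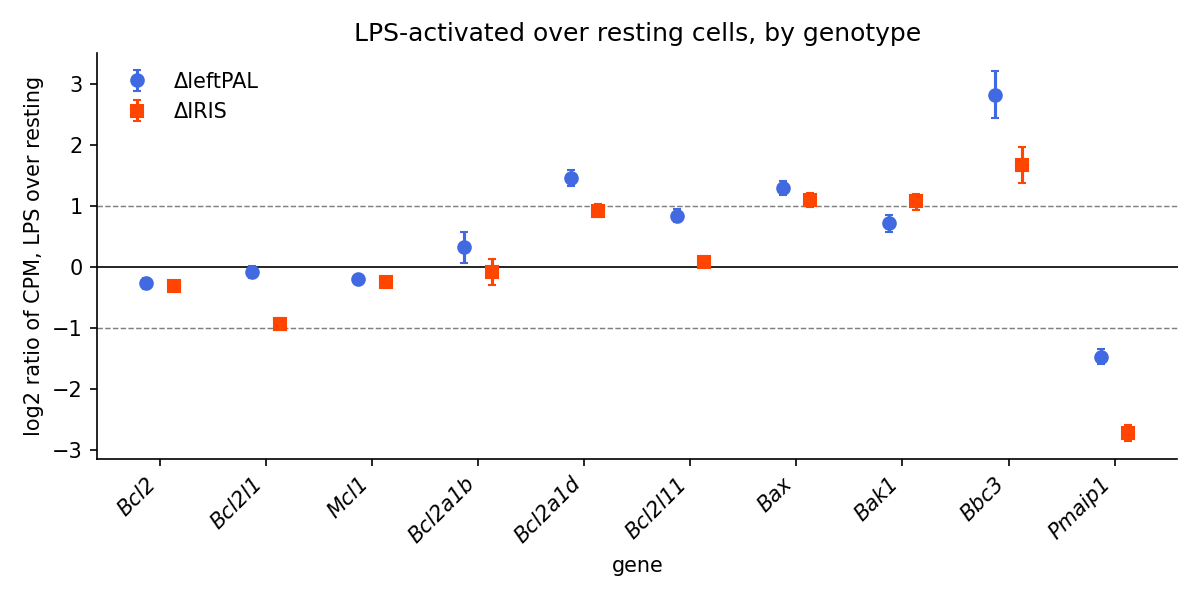
Log2 ratio of CPM in LPS-activated over resting cells for each member, with ΔleftPAL as circles and ΔIRIS as squares. Bars are 95% Clopper-Pearson intervals of counting error, and the dashed lines mark 2-fold. Bax and Bbc3 lay above the upper line and Pmaip1 below the lower line in both genotypes.

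Of the protective members, Mcl1, which encodes a short-lived protein that B cells cannot do without, had the highest counts. It lies on chromosome 3 (95658721 to 95663176, plus strand) and was counted at 13144 at rest and 13737 after LPS in ΔleftPAL cells and at 16589 and 15709 in ΔIRIS cells. The levels were 564 and 491 CPM and 599 and 505 CPM, so both LPS libraries lay below both resting ones by a small margin. The log2 ratios were -0.20 (-0.23 to -0.16) and -0.25 (-0.28 to -0.21), and the fitted change of -0.22 ± 0.11 (SE, edgeR adjusted p = 0.136) did not pass the test. Bcl2, the founding member of the family, lies on chromosome 1 (106538178 to 106714274, minus strand). Its counts were 2036 and 2021 in ΔleftPAL and 2489 and 2240 in ΔIRIS cells, or 87.4 and 72.3 CPM and 89.9 and 72.1 CPM. The genotypes were nearly alike in each state, the log2 ratios of LPS over resting were -0.27 (-0.36 to -0.18) and -0.32 (-0.40 to -0.24), and the fitted change was -0.30 ± 0.11 (SE, edgeR adjusted p = 0.0814). Exons of Bcl2 share 558 bases with D630008O14Rik on the opposite strand, which had 8 to 16 counts.

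Bcl2l1, which encodes BCL-XL, lies on chromosome 2 (152780668 to 152831728, minus strand). It had 1466 counts at rest and 1660 after LPS in ΔleftPAL cells, or 62.9 and 59.4 CPM, and 2111 and 1236 in ΔIRIS cells, or 76.3 and 39.8 CPM. The LPS-activated ΔIRIS library was lower than the other 3. The log2 ratio of LPS over resting was -0.08 (-0.19 to 0.02) in ΔleftPAL and -0.94 (-1.04 to -0.84) in ΔIRIS cells, and the fitted change of -0.51 ± 0.23 (SE, edgeR adjusted p = 0.121) did not pass the test. The sign in ΔleftPAL cells depended on the scaling, with 0.05 from kallisto estimated counts and 0.04 with no minimum count. BCL-XL is also the member on which maturing red cells rely. The summed erythroid markers went from 19062 to 24.3 CPM in ΔleftPAL and from 12463 to 51.0 CPM in ΔIRIS cells. Their part in the level of Bcl2l1 was not tested.

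The split of Bcl2l1 among its transcripts also differed between the states. Transcript ENSMUST00000007803, whose start is the outermost one, made up 34.2% and 31.0% of the gene's TPM in resting ΔleftPAL and ΔIRIS cells and 56.0% and 46.4% after LPS. Transcript ENSMUST00000109820 made up 39.9% and 38.5% at rest and 20.2% and 21.4% after LPS. In estimated counts the former went from 572 to 1045 in ΔleftPAL and from 775 to 709 in ΔIRIS cells, and the latter from 713 to 403 and from 1027 to 349. The direction of both shares was the same in both genotypes, and kallisto gave no error for these splits. The sequence before the outermost start is shown for reference, with no match to the κB consensus and so no capitals (chr2:152831729-152831978, minus strand, GRCm38.p6).
Bcl2l1: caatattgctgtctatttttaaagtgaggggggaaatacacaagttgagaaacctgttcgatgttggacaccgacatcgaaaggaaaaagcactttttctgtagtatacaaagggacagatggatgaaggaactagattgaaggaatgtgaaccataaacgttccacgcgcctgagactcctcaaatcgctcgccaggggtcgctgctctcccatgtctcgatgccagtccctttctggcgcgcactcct

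A1 is made by several near-identical genes on chromosome 9, of which Bcl2a1b (89199209 to 89207827, plus strand) and Bcl2a1d (88723285 to 88731914, minus strand) are members and Bcl2a1a (88956900 to 88962419, plus strand) is a further copy expressed here. In the GENCODE M21 transcripts the coding sequences of 516 bases differ between Bcl2a1b and Bcl2a1d at 6 positions (98.8% identity), between Bcl2a1a and Bcl2a1d at 7 and between Bcl2a1a and Bcl2a1b at 11. Of the stretches of 31 bases in each transcript, 27.3% of those of Bcl2a1b, 10.9% of those of Bcl2a1d and 21.7% of those of Bcl2a1a occur in no other of the 3. The first 60 coding bases hold 6 of the 12 positions at which the copies differ, and the other positions lie further on. They are shown as a stretch in which each copy differs from the others, with those positions in capitals.
Bcl2a1a: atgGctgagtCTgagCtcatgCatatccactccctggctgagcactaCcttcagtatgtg
Bcl2a1b: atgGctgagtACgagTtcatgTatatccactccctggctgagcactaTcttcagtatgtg
Bcl2a1d: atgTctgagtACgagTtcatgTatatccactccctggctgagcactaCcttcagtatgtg
The stretches lie at chr9:88957051-88957110 on the plus strand for Bcl2a1a, chr9:89199360-89199419 on the plus strand for Bcl2a1b and chr9:88731660-88731719 on the minus strand for Bcl2a1d. The sequence upstream of the RNA is nearly shared too. Over the 142 aligned positions of the RefSeq windows that lie before the annotated starts, Bcl2a1b and Bcl2a1d were identical at 135 (95.1%), with 1 mismatch and 6 positions present in Bcl2a1b alone, all in capitals.
Bcl2a1b: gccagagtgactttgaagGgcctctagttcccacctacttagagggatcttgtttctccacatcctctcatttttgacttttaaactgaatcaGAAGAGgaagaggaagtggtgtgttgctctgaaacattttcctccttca
Bcl2a1d: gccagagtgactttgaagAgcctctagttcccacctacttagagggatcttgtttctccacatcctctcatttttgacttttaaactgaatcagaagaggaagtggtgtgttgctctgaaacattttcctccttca
These lie at chr9:89199023-89199164 on the plus strand, ending 44 bases before the annotated start, and at chr9:88731915-88732050 on the minus strand, ending at the start (GRCm38.p6).

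Bcl2a1d was higher in LPS-activated cells. It had 655 counts at rest and 2163 after LPS in ΔleftPAL cells, or 28.1 and 77.4 CPM, and 935 and 1987 in ΔIRIS cells, or 33.8 and 63.9 CPM. Both LPS libraries were above both resting ones, with log2 ratios of 1.46 (1.33 to 1.59) and 0.92 (0.81 to 1.03) and a fitted change of 1.19 ± 0.17 (SE, edgeR adjusted p = 0.00531). Bcl2a1b did not pass the test. Its counts were 229 and 343 in ΔleftPAL and 356 and 376 in ΔIRIS cells, or 9.83 and 12.3 CPM and 12.9 and 12.1 CPM, and the resting ΔleftPAL library was the low one. The log2 ratios were 0.32 (0.07 to 0.57) and -0.09 (-0.30 to 0.12), and the fitted change was 0.11 ± 0.19 (SE, edgeR adjusted p = 0.625). Bcl2a1a fell, from 157 to 94 counts in ΔleftPAL and from 221 to 74 in ΔIRIS cells, with a fitted log2 change of -1.37 ± 0.29 (SE, edgeR adjusted p = 0.0157).

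How the reads were divided among the copies depended on the table. The gene counts of Bcl2a1b were 0.336 to 0.364 of its kallisto estimated counts, whereas the median over all genes with at least 100 estimated counts was 0.985 to 0.988. Bcl2a1b is also the member whose exons share bases with another gene on the same strand: 401 of its 817 bases lie in exons of RP23-121I20.3, which itself had 0 or 1 counts, and reads that overlap 2 genes are left out by the stated counting. The part of this overlap in the low gene counts of Bcl2a1b was not tested. For Bcl2a1a the ratio was 0.912 and 0.896 at rest but 3.18 and 5.22 after LPS, and for Bcl2a1d it was 0.997 to 1.17. In gene counts Bcl2a1d took 62.9% and 61.8% of the reads of the 3 copies at rest and 83.2% and 81.5% after LPS. In kallisto estimated counts it took 39.5% and 40.0% at rest and 69.0% and 65.3% after LPS, and Bcl2a1b took 48.3% and 48.2% at rest and 30.0% and 34.3% after LPS. In both tables the share of Bcl2a1d was higher after LPS in both genotypes, while the level of each copy remains uncertain.

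**Figure D3:**
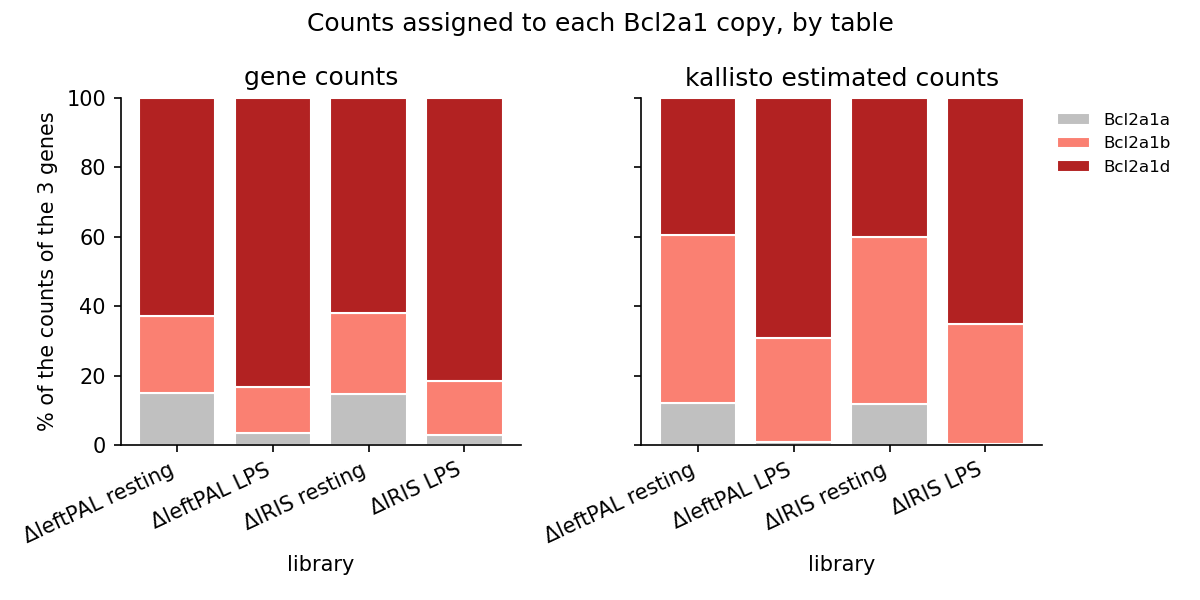
Share of the counts of Bcl2a1a, Bcl2a1b and Bcl2a1d that each copy took in each library, in percent, from gene counts on the left and kallisto estimated counts on the right. Bcl2a1d took 81.5% or more after LPS in gene counts and 65.3% or more in estimated counts, and Bcl2a1b took a larger share in estimated counts than in gene counts in every library.

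Summed over the copies, which avoids the split among them, the Bcl2a1 genes went from 1041 to 2600 gene counts in ΔleftPAL cells and from 1512 to 2437 in ΔIRIS cells. The log2 ratio was 1.06 (0.95 to 1.16) and 0.52 (0.43 to 0.61), or 2.08-fold and 1.43-fold. The kallisto estimated counts gave 1.01 (0.92 to 1.10) and 0.49 (0.41 to 0.57). The sum was thus higher after LPS in both genotypes and by both tables, and its interval in ΔIRIS cells lay below that in ΔleftPAL cells.

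As a share of the TPM of the protective genes, Mcl1 and the Bcl2a1 genes together held most. Mcl1 made up 54.5% and 51.4% in resting ΔleftPAL and ΔIRIS cells and 41.2% and 45.3% after LPS. The Bcl2a1 genes together made up 30.0% and 32.8% at rest and 46.6% and 44.1% after LPS, so that they exceeded Mcl1 in LPS-activated ΔleftPAL cells and were just under it in LPS-activated ΔIRIS cells. Bcl2l1 made up 6.44% to 11.3%, Bcl2 3.32% to 4.78%, and Bcl2l2, which encodes BCL-W, 0.303% to 0.761%. The total of the protective genes was 380 TPM at rest and 407 TPM after LPS in ΔleftPAL cells and 418 and 372 TPM in ΔIRIS cells, against the rise of the effectors given above. From gene counts per kilobase, where Bcl2a1b has fewer counts than in the kallisto table, Mcl1 stayed first in every library, at 51.8% to 67.8%, and the Bcl2a1 genes made up 22.1% to 40.0%.

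**Figure D4:**
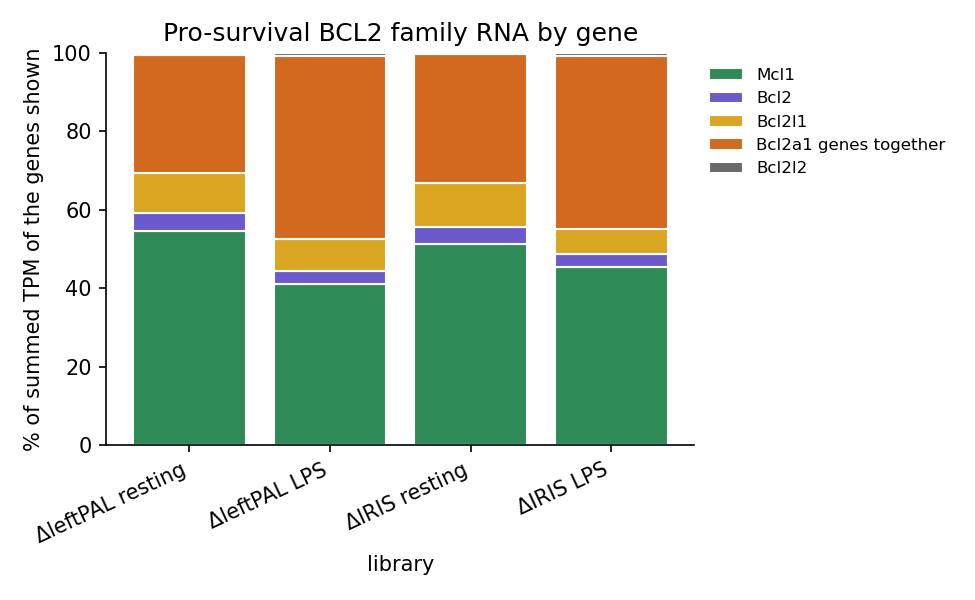
Share of the summed TPM of the protective BCL2 family genes in each library, in percent, with the Bcl2a1 copies added together. The Bcl2a1 share was 30.0% and 32.8% at rest and 46.6% and 44.1% after LPS, and the Mcl1 share was lower after LPS in both genotypes.

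Taking each genotype alone, with a gene called when its log2(CPM + 0.5) differed by at least 2-fold, Bax, Bbc3 and Bcl2a1d were called higher and Pmaip1 lower in ΔleftPAL cells. Among all genes 17.3% were called higher and 17.7% lower there. In ΔIRIS cells Bak1, Bax and Bbc3 were called higher and Pmaip1 lower, against 17.8% and 20.0% of all genes. Bax and Bbc3 were higher in both genotypes, as were 14.5% of all genes, and Pmaip1 was lower in both, as were 15.0%. In ΔIRIS cells several of these lay close to the threshold: with a prior of 5 CPM only Bbc3 was still called higher, and with kallisto TPM only Bax was. Bcl2a1d, at 0.92, was called higher there as well with total counts (1.03), kallisto estimated counts (1.20) or no minimum count (1.08).

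The rest of the family and its partners were read from lists of known genes. Over all genes the median log2 change with LPS was -0.02 and over the 10 members it was 0.28, and the shares of all genes called were 31.3% higher and 31.4% lower. Of the 7 protective genes tested, 2 rose (Bcl2a1d and Bcl2l2) and 1 fell (Bcl2a1a). Of the 6 BH3-only genes tested, Bad, Bbc3 and Bid rose, Bmf and Pmaip1 fell, and Bcl2l11 did not pass the test. Bid, which links death receptors to BAX and BAK once it is cleaved, went from 50.7 to 120 CPM in ΔleftPAL and from 29.5 to 94.1 CPM in ΔIRIS cells (log2 change 1.46 ± 0.16, SE, edgeR adjusted p = 0.00244). Summed over the 8 BH3-only genes listed, the level went from 130 to 171 TPM in ΔleftPAL but from 159 to 135 TPM in ΔIRIS cells. Among 4 further relatives tested, Bcl2l13 rose and Bnip3l fell. Bnip3l, a mitophagy receptor that maturing red cells use to clear mitochondria, went from 219 to 40.9 CPM and from 239 to 42.9 CPM (log2 change -2.45 ± 0.12, SE, edgeR adjusted p = 0.000822). The erythroid markers fell too, and their part in the change of Bnip3l was not tested.

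Downstream of the members, 6 of the 12 apoptosome and caspase genes rose and 3 fell, against 31.3% and 31.4% of all genes, with a median log2 change of 0.31. Cycs, which encodes the cytochrome c that BAX and BAK release and that also serves respiration, went from 28.9 to 116 CPM in ΔleftPAL and from 31.9 to 126 CPM in ΔIRIS cells (log2 change 1.99 ± 0.12, SE, edgeR adjusted p = 0.000971). Aifm1, a flavoprotein of the mitochondrial intermembrane space, rose by a log2 change of 1.38 ± 0.14 (SE, edgeR adjusted p = 0.00204). Casp6, an executioner caspase, fell from 213 to 96 counts in ΔleftPAL and from 249 to 112 counts in ΔIRIS cells. Apaf1, Endog and Htra2 rose as well, and Casp2 and Casp9 fell too. Of the 6 inhibitor of apoptosis genes, Birc5 rose and Birc3 and Naip2 fell. Birc5 encodes survivin, which is also a part of the mitotic machinery, and went from 8.84 to 89.8 CPM and from 11.1 to 94.0 CPM (log2 change 3.21 ± 0.14, SE, edgeR adjusted p = 0.000791). Of the 6 activation and proliferation markers, the 4 genes of dividing cells (Mki67, Top2a, Cdk1 and Ccnb1) rose and the activation markers Cd69 and Cd86 fell. Mki67 went from 201 to 1477 CPM and from 288 to 1536 CPM, and Cd69 from 152 to 44.4 CPM and from 222 to 31.2 CPM.

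Of 19 genes that regulate the members, 5 rose and 8 fell, against 31.3% and 31.4% of all genes, with a median log2 change of -0.16. Pim2, a survival kinase, had 225 and 320 counts at rest and 2013 and 2432 after LPS (log2 change 2.83 ± 0.13, SE, edgeR adjusted p = 0.000791). Trp53, the gene of p53, rose by 1.05 ± 0.15, and E2f1, a cell-cycle transcription factor, by 1.73 ± 0.21. Vdac2, the mitochondrial channel that binds BAK, rose by 1.25 ± 0.12, and Nfkb1 rose as well. Ddit3, the stress factor CHOP, fell from 38.4 to 6.44 CPM in ΔleftPAL and from 91.2 to 5.50 CPM in ΔIRIS cells (log2 change -3.32 ± 0.40, SE, edgeR adjusted p = 0.00326). Foxo1, a transcription factor of quiescent B cells, fell from 105 to 42.1 CPM and from 191 to 39.1 CPM. Rel, an NF-κB subunit that acts on Bcl2l1 and the Bcl2a1 genes, fell from 83.3 to 30.3 CPM and from 176 to 22.0 CPM. Myc, Nfkb2, Rela, Relb and Foxo3 were the other genes of this list that fell.

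The genes whose pattern over the 4 libraries was nearest to that of a member changed at least 2-fold in both genotypes were found by the Euclidean distance of centred log2(CPM + 0.5), immunoglobulin genes left out. For Bax they were Ssr4 at a distance of 0.05 and Gins4 at 0.06. For Bbc3 they were Gm10349 at 0.25 and Ccng1, the gene of cyclin G1, at 0.29. For Pmaip1 they were Gch1 at 0.15 and Mycl at 0.17. Ccng1 was at 67.8 and 394 CPM in ΔleftPAL and at 82.0 and 318 CPM in ΔIRIS cells, so that, like Bbc3, it was higher in ΔleftPAL than in ΔIRIS cells after LPS and lower at rest. With 4 libraries such a likeness describes the pattern and no more.

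The second comparison asked how the members differed between ΔIRIS and ΔleftPAL cells. Fitted over both states by edgeR's quasi-likelihood test, 0 of 10 members differed, with adjusted p-values from 0.773 to 1.00. No member had an unadjusted p under 0.05 either, and DESeq2 called 0 as well. Among all genes edgeR called 0% higher and 0.00886% lower in ΔIRIS cells, the latter being 1 gene, while 666 genes had an unadjusted p under 0.05 and DESeq2 called 34. The states serve as the repeats in this fit and came from the same genotypes' mice, so a difference present in 1 state only, or opposite in the 2 states, would widen the error rather than be called. The fitted log2 difference of ΔIRIS over ΔleftPAL ranged from -0.15 ± 0.23 (SE) for Bcl2l1 to 0.26 ± 0.32 for Pmaip1 and 0.26 ± 0.21 for Bcl2l11.

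Within each state every member differed by less than 2-fold between the genotypes. At rest, where 1.89% of all genes were called higher and 1.03% lower in ΔIRIS cells, the widest ratio was that of Pmaip1, with 123 against 67.1 CPM and a log2 ratio of 0.87 (0.78 to 0.96). Bbc3 followed with 0.67 (0.23 to 1.13) and Bcl2l11 with 0.64 (0.53 to 0.76). After LPS, where 0.496% of all genes were called higher and 1.45% lower, Bcl2l1 had the widest ratio at -0.58 (-0.69 to -0.47), with 39.8 against 59.4 CPM. Bbc3 was at -0.47 (-0.65 to -0.29) and Pmaip1 at -0.39 (-0.55 to -0.22). Each ratio compares 1 library with 1 other, so the spread between mice or cultures is not in its interval.

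Of the members, 5 (Bbc3, Bcl2l11, Pmaip1, Bcl2l1 and Bcl2a1d) had a higher CPM in ΔIRIS than in ΔleftPAL cells at rest and a lower one after LPS, with both intervals clear of 0, as had 6.17% of all genes. This did not extend to the other BH3-only genes tested, since Bid was at -0.78 at rest and -0.35 after LPS, Bad at -0.13 and -0.15, and Bmf at 0.56 and 0.11. By CPM, Bak1 did the reverse, at -0.18 (-0.35 to -0.02) at rest and 0.18 (0.07 to 0.29) after LPS, as did 4.31% of all genes. With kallisto TPM the Bak1 ratio after LPS was -0.00. Counts of genes that turn in this way grow with the depth of a gene, and the change of sign itself was not tested. The ratios of Bcl2 were 0.04 (-0.04 to 0.13) and -0.00 (-0.09 to 0.08), and those of Mcl1 were 0.09 (0.05 to 0.12) and 0.04 (0.01 to 0.07). Bax was at -0.04 (-0.18 to 0.10) and -0.23 (-0.32 to -0.14), and Bcl2a1b at 0.39 (0.15 to 0.63) and -0.02 (-0.24 to 0.19). In terms of the LPS response this is the same as a log2 ratio of LPS over resting that was lower in ΔIRIS than in ΔleftPAL cells by 1.25 for Pmaip1, 1.14 for Bbc3, 0.86 for Bcl2l1 and 0.76 for Bcl2l11. With 1 library per genotype and state the difference between the responses was not tested.

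**Figure D5:**
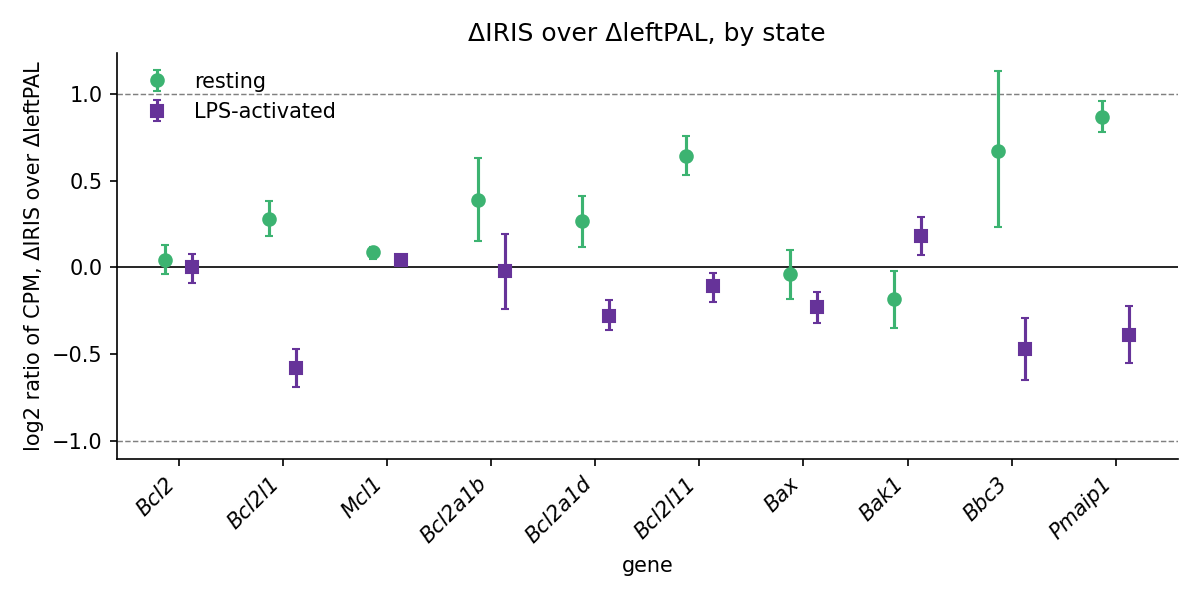
Log2 ratio of CPM in ΔIRIS over ΔleftPAL cells for each member, with resting cells as circles and LPS-activated cells as squares. Bars are 95% Clopper-Pearson intervals of counting error, and the dashed lines mark 2-fold. Bbc3, Bcl2l11, Pmaip1, Bcl2l1 and Bcl2a1d lay above 0 at rest and below 0 after LPS, and no point passed the dashed lines.

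Some other measures also differed between the genotypes' libraries. At rest the summed erythroid markers were lower in the ΔIRIS library, at 12463 against 19062 CPM, and the macrophage markers higher, at 503 against 375 CPM. The activation markers Cd69 and Cd86 were higher in resting ΔIRIS cells, with log2 ratios of 0.55 and 0.78, and lower after LPS, at -0.51 and -0.22. The summed plasmablast markers were lower in LPS-activated ΔIRIS cells, at 566 against 949 CPM. Their part in the differences of the members was not tested.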

How the data were processed

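RNA of 4 libraries was analysed, 1 per genotype and state. The authors mapped paired reads of 150 nt to mm10 (GRCm38) with STAR 2.4.0a and Ensembl 77 gene models. They deposited raw featureCounts fragment counts (Subread 1.4.6-p1), summed by gene name, together with kallisto 0.42.3 estimated counts and TPM per transcript (index and settings not given in the sources used here). Counting was stated as stranded with setting 1, multi-mapped reads included. The gene counts were a median of 0.985 to 0.988 of the estimated counts, as in a table counted on the sense strand. The row without a gene name held 0.00876% to 0.0264% of counts and was left out. No per-sample column other than those used was found (0).

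Total counts for ΔleftPAL were 23621743 at rest and 27780350 after LPS, and for ΔIRIS 28711549 and 29778717. TMM factors were 0.987, 1.01, 0.964 and 1.04. Genes averaging 50 counts or more were fitted with edgeR 4.0.16 in R 4.3.3 (quasi-likelihood test, genotype and state as terms, 1 residual degree of freedom, Benjamini-Hochberg adjustment over 11286 genes, threshold 0.05). The samples are pools whose repeats are the other genotype or state, so p-values measure the spread between these libraries only. Ratios within a pair of libraries carry exact 95% Clopper-Pearson intervals (scipy 1.17.1), and intervals and the floor of 3 counts cover counting error only. A pair was called at 2-fold on log2(CPM + 0.5), which understates the change of low genes. Estimated counts were rounded before fitting. Genes named are the 10 members, up to 3 genes per list and direction that passed the LPS test and changed at least 2-fold in both genotypes, and the 2 nearest genes of each member that did so. Other genes were named after their values were seen. The members and lists were chosen with earlier results of these data known.

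The procedure was tested on simulated data for the LPS comparison over 11286 genes, where 77 of 100 genes changed 2-fold and 100 of 100 changed 4-fold were called, and 13 unchanged genes were called. For the ratio of ΔIRIS over ΔleftPAL after LPS, 1078 of 1129 simulated intervals (95.5%) covered the true value. As alternatives, the fits were repeated with total counts, DESeq2 1.42.0, TMM factors without immunoglobulin genes, kallisto estimated counts, a minimum mean of 10 or none, and no second term. The ratios within pairs were repeated with the same scalings and minimums, and also with kallisto TPM and with a prior of 5 CPM. Positions and transcripts come from GENCODE M21 and promoter windows from RefSeq (GRCm38.p6). Protein sequences were not used here. The result of 1 gene of the lists is not reported here.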

Additional observations from a re-analysis of the deposited data

Results flagged for a closer look

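The members and the genes named from the lists by the rule were looked at for a turn between the states. For 8 of them the log2 ratio of ΔIRIS over ΔleftPAL cells lay on opposite sides of 0 at rest and after LPS, with both counting intervals clear of 0. Over all genes tested, 6.17% were higher in ΔIRIS cells at rest and lower after LPS in this way and 4.31% the reverse, so other genes of the lists turned too. The difference between the states was not tested for any of them, because 1 library per genotype and state leaves no degree of freedom for it.

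Among the members, Pmaip1 went from 0.87 at rest to -0.39 after LPS, a difference of -1.25. Bbc3 went from 0.67 to -0.47, a difference of -1.14. Bcl2l1 went from 0.28 to -0.58, a difference of -0.86, and Bcl2l11 from 0.64 to -0.11, a difference of -0.76. Bcl2a1d went from 0.27 to -0.28, a difference of -0.54. Bak1 was the member that turned the other way, from -0.18 to 0.18, a difference of 0.36. With kallisto TPM the Bak1 ratio after LPS was -0.00. Among the other named genes, Rel went from 1.08 to -0.46, a difference of -1.54, and Birc3 from 0.13 to -0.12, a difference of -0.25.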

How the results depend on the processing

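No paired analysis was possible because the labels give no replicate numbers and each group is 1 library, with genotype already a term of the fit of the LPS response. Leaving out a library would leave no residual degree of freedom, so it was not done. The calls of the members over both genotypes were 4 higher and 1 lower under each of the 7 alternatives of the fit, except that Bcl2l11 was also called higher with no minimum count. None of the 10 members was called between the genotypes under these 7 alternatives. No called value changed sign. Among single genes and their ratios, 1001 values stayed within their interval or on their side of the threshold and 148 moved, and among counts and shares 180 stayed and 36 moved.

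Of all genes, the genotype fit called 9 higher and 25 lower with DESeq2, 5 lower with kallisto estimated counts, 13 higher and 32 lower with no minimum count, and 0 lower without the second term. With a prior of 5 CPM, 1249 genes were called at least 2-fold lower after LPS in ΔleftPAL cells, 95 higher and 37 lower in resting ΔIRIS cells, and 11 higher and 72 lower in LPS-activated ΔIRIS cells. With no minimum count the last comparison gave 86 higher and the resting one 179 lower. In ΔIRIS cells 1 member was called higher with a prior of 5 CPM and 1 with kallisto TPM, which were Bbc3 and Bax. The Bcl2a1 genes together had a log2 ratio of LPS over resting of 0.64 in ΔIRIS cells with total counts. The causes were not tested, other than that a higher prior shrinks ratios of low genes.

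From gene counts per kilobase, shares of the protective genes (ΔleftPAL at rest and after LPS, then ΔIRIS at rest and after LPS) were 67.8%, 51.8%, 65.2% and 56.9% for Mcl1, 22.1%, 40.0%, 24.5% and 36.0% for the Bcl2a1 genes together, 5.75%, 4.76%, 6.31% and 3.40% for Bcl2l1, 4.00%, 2.90%, 3.72% and 3.09% for Bcl2, and 0.238%, 0.577%, 0.267% and 0.481% for Bcl2l2.

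Depth limits Bbc3 most, with 66 and 125 counts at rest. The sign of an uncalled member value turned under an alternative in 10 cases, a value being counted again for each alternative that turned it. All of these values were at 0.09 or less in size as reported. Those that moved furthest were the LPS response of Bcl2l11 in ΔIRIS cells, at -0.32 with kallisto TPM, and the genotype difference of Bbc3, at -0.27 without the second term. The ratio of ΔIRIS over ΔleftPAL for Bak1 after LPS was not counted among the 10 cases. It was 0.18 as reported and -0.00 with kallisto TPM.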
